A study of Mus musculus with 8 samples.

Results

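The genes described here are 10 Wnt-dependent genes of hepatocytes around the central vein, Glul, Oat, Rhbg, Axin2, Rnf43, Znrf3, Tbx3, Lgr5, Lect2 and Nkd1, out of 52551 rows in each count file. They were taken by symbol as known targets of beta-catenin and central-vein genes of ammonia handling, and 6 of the 10 had enough counts to be tested. RNA came from livers of 6-week-old male C57BL/6 mice in 2 groups of 4 libraries. The PiZ/Chop-/- group carried the PiZ transgene, which encodes human alpha-1 antitrypsin (SERPINA1) in its Z form, and lacked Chop (Ddit3), a transcription factor gene of the stress response of the endoplasmic reticulum. The PiZ group carried the same transgene with Chop present, so neither group is free of the transgene. The labels give no promoter for the transgene, do not say whether Chop was deleted in every cell type, and do not tie the libraries to single mice. P-values therefore measure the spread between these libraries. The wild-type livers that the design mentions were not used here.

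The liver lobule is zonated: blood enters at the portal vein and leaves at the central vein, and hepatocytes along that path make different proteins. Endothelial cells at the central vein release Wnt ligands and Rspondin 3, which keep beta-catenin stable in the nearest hepatocytes, and beta-catenin with TCF factors then drives genes such as Glul and Axin2. These hepatocytes take up ammonia that escaped the urea cycle upstream and fix it into glutamine. Several of the targets are themselves brakes on the pathway. The question the comparison can address is whether this programme differs between PiZ livers with and without Chop.

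TCF factors bind a core that can be written as CTTTGA, or CTTTGAT in a longer form. RefSeq promoter windows (GRCm38.p6, 250 bases before to 50 bases after a start) were matched for 6 of the 10 genes: Glul, Oat, Axin2, Rnf43, Lect2 and Nkd1, with 2 windows for Rnf43. Both forms were searched on both strands, and any match of the longer form is also one of the shorter. Lect2 was the 1 gene of the 6 with a match, and its match had the longer form. Over 32841 windows of the same length, 16% held the shorter and 3.73% the longer form. The Lect2 stretch is shown because it is the only such match among these genes. It lies at chr13:56548537-56548597 on the minus strand and is written 5′ to 3′ on the gene's strand. The reverse complement of the longer form is in capitals, its first base 32 bases before the RefSeq start.
Lect2: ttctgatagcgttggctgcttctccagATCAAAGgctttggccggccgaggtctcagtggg

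Total counts ran from 1850275 to 2375907 in the PiZ/Chop-/- libraries and from 1650260 to 3064385 in the PiZ libraries. Reads come from the 3′ ends of transcripts, so levels are CPM, the counts scaled to library size and by TMM factors, with no division by gene length, given as mean ± SD with n = 4 per group. Log2 fold changes set PiZ/Chop-/- over PiZ and come from edgeR, with p adjusted by Benjamini-Hochberg over the 8669 genes tested and a threshold of 0.05. Ddit3 followed the labels, with 3 to 9 counts in the PiZ/Chop-/- libraries and 180 to 595 in the PiZ libraries. The transgene's SERPINA1 transcript was itself lower, at 620 ± 70.9 CPM in PiZ/Chop-/- and 1451 ± 374 CPM in PiZ (SD, n = 4 each; edgeR adjusted p = 0.00873, or 0.0575 without PiZ/Chop-/- library 3). The groups thus differ in the level of this transcript as well as in Chop, and its part in the other differences was not tested. Of 10 hepatocyte markers 9 had a row, all detected. Their summed level was 56179 to 66020 CPM in PiZ/Chop-/- and 61022 to 76852 CPM in PiZ, so both groups are hepatocyte-rich liver. In bulk liver, fewer cells of a type and less RNA per cell cannot be told apart.

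Of the 10 genes 6 were tested, and Rhbg alone passed the threshold, lower in PiZ/Chop-/-. That is 1 of 6, against 1.03% of all 8669 genes in either direction and 0.692% lower. The median log2 fold change of the 6 was -0.18, with 2 above 0 and 4 below, beside a median of -0.0016 over all genes tested. The genes span a wide range of levels. In the mean over all libraries Lect2, Glul and Oat stood highest, followed by Rhbg, Tbx3 and Rnf43, and then by Lgr5, Znrf3, Nkd1 and Axin2, which were too low to test. In each group Oat lay above Rhbg, Tbx3 above Rnf43 and Rnf43 above Lgr5 in every library, while Glul and Oat overlapped in PiZ and the 4 lowest genes overlapped with a neighbour.

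**Figure D1:**
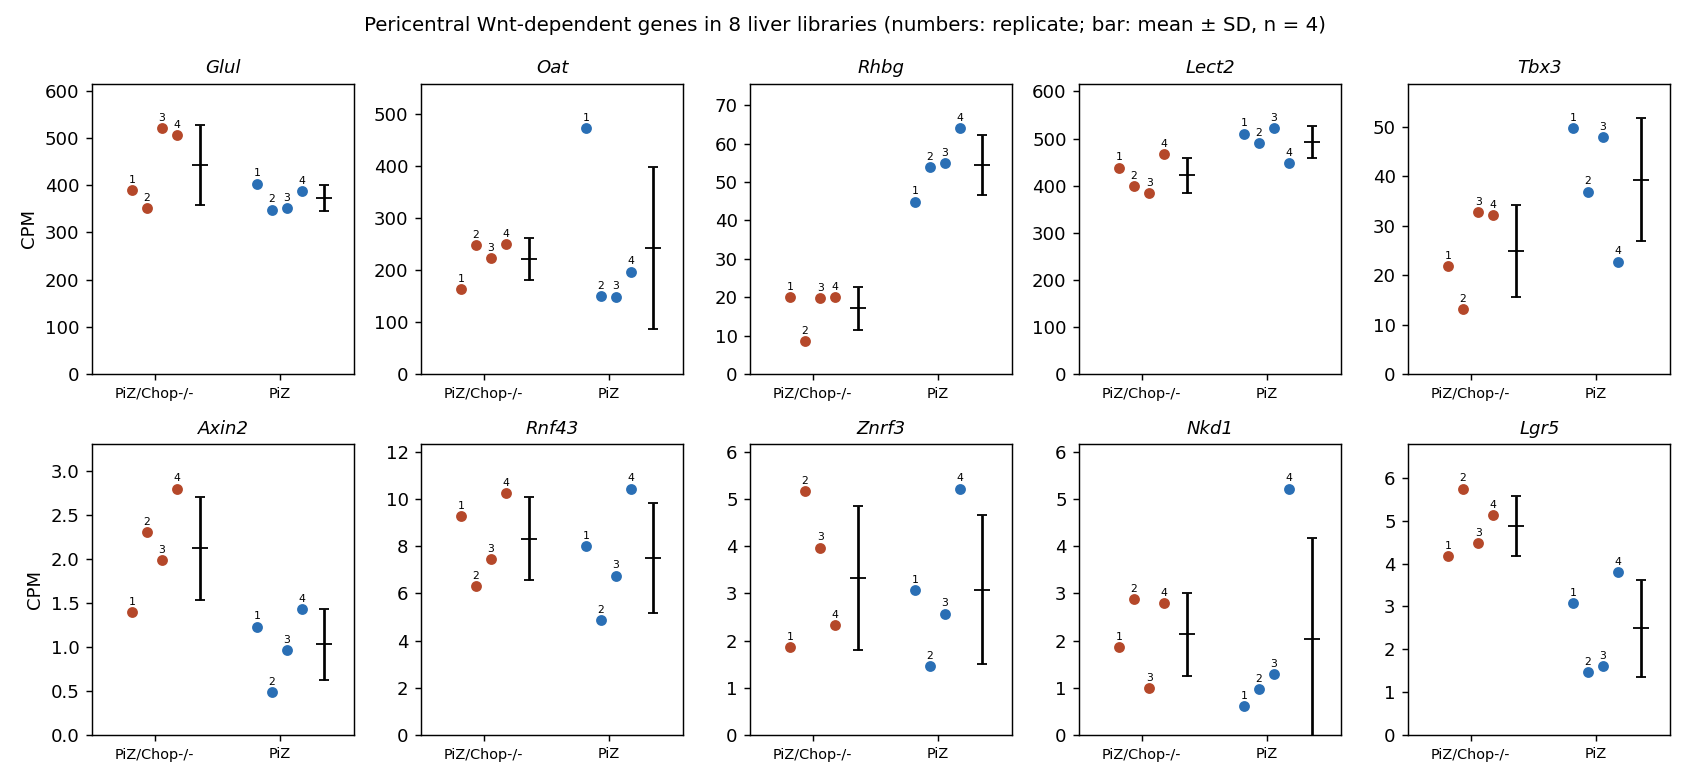
Level in CPM (vertical axes, each from 0) of the 10 genes in the 4 PiZ/Chop-/- libraries (left, red) and the 4 PiZ libraries (right, blue), with replicate numbers and the mean ± SD beside the points. Rhbg lies between 8.62 and 20.03 CPM in PiZ/Chop-/- and between 44.9 and 64.1 CPM in PiZ, and the PiZ point of Oat at 473 CPM stands apart.

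Rhbg, a membrane channel for ammonia of the Rh glycoprotein family that sits on central-vein hepatocytes, was 3.16-fold lower in PiZ/Chop-/- livers. Its counts were 43, 15, 40 and 43 in PiZ/Chop-/- libraries 1 to 4, against 73, 111, 171 and 135 in PiZ libraries 1 to 4. Scaled to library size these were 19.98, 8.62, 19.86 and 20.03 CPM in PiZ/Chop-/- and 44.9, 53.9, 55.0 and 64.1 CPM in PiZ. Every PiZ/Chop-/- library lay below every PiZ library, and within PiZ/Chop-/- libraries 1, 3 and 4 were almost equal with library 2 lower still. The mean was 17.1 ± 5.67 CPM in PiZ/Chop-/- and 54.5 ± 7.84 CPM in PiZ (SD, n = 4 each). The log2 fold change was -1.66 (SE 0.26, 95% interval -2.21 to -1.11, adjusted p = 0.00353, edgeR), rank 24 by p among the 8669 genes. The exact two-sided permutation p of mean log2 CPM was 0.0286, the smallest that 4 against 4 can give. Groups did not overlap in 7.88% of all genes tested, and among the 6 tested genes this held for Rhbg alone with TMM scaling.

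The Rhbg difference held its size in each alternative. Over 18 of them its log2 fold change lay between -1.74 and -1.45 and its adjusted p between 1.52e-07 and 0.0152. Without PiZ/Chop-/- library 2, the lowest, it was -1.45 (adjusted p = 0.00526). Rhbg (ENSMUSG00000104445) lies on the minus strand of chromosome 3 at 88242874 to 88254709 (mm10). GENCODE M21 places 1 gene model, Gm38392, over it on the same strand, which had 0 counts. The other Rh channels that carry ammonia, Rhcg and the red cell protein Rhag, had 0 counts in every library.

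Glul, glutamine synthetase, the enzyme that fixes ammonia into glutamine in the hepatocytes next to the central vein, did not pass. It had 389, 352, 521 and 506 CPM in PiZ/Chop-/- libraries 1 to 4 and 403, 348, 351 and 387 CPM in PiZ libraries 1 to 4. PiZ/Chop-/- libraries 3 and 4 lay above all PiZ libraries, and libraries 1 and 2 lay within their range. The mean was 442 ± 84.4 CPM in PiZ/Chop-/- and 373 ± 27.1 CPM in PiZ (SD, n = 4 each; log2 fold change 0.25, 95% interval -0.15 to 0.64, adjusted p = 0.608, edgeR). The interval runs from 0.902 to 1.56 times the PiZ level. Glul occupies 153899944 to 153909723 of chromosome 1, plus strand, where Teddm2, annotated on the other strand, had 76 counts over the 8 libraries against 6868 for Glul.

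Rhbg and Glul act in the same step, entry of ammonia and its fixation, and their ratio within a library does not depend on how libraries are scaled. For 100 Glul reads there were 5.14, 2.45, 3.81 and 3.96 Rhbg reads in PiZ/Chop-/- libraries 1 to 4. In PiZ libraries 1 to 4 there were 11.1, 15.5, 15.6 and 16.5. The ratio averaged 3.84 ± 1.10 in PiZ/Chop-/- and 14.7 ± 2.43 in PiZ (SD, n = 4 each). The ratio was chosen after the values of both genes were seen, so it is given as a description with no test.

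Oat, ornithine aminotransferase, a mitochondrial enzyme that turns ornithine towards glutamate in central-vein hepatocytes, had 1 PiZ library far above the rest. It had 164, 247, 223 and 249 CPM in PiZ/Chop-/- libraries 1 to 4 and 473, 150, 149 and 197 CPM in PiZ libraries 1 to 4. The mean was 221 ± 39.9 CPM in PiZ/Chop-/- and 242 ± 155 CPM in PiZ (SD, n = 4 each; log2 fold change -0.13, 95% interval -0.91 to 0.65, adjusted p = 0.914, edgeR). Its sign rests on PiZ library 1. Without that library the log2 fold change was 0.42 (adjusted p = 0.431), with 3 of 4 PiZ/Chop-/- libraries above the other PiZ libraries. Oat lies on the minus strand of chromosome 7 at 132557478 to 132576398 and overlaps Fgfr2, a growth factor receptor gene on the same strand with 122 counts against 3722 for Oat.

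PiZ library 1 was also the highest for 2 periportal genes of nitrogen disposal. Cps1, the enzyme that feeds ammonia into the urea cycle, had 391 to 547 CPM in PiZ/Chop-/-, against 893 CPM in PiZ library 1 and 348 to 474 CPM in the other PiZ libraries. Arg1, the arginase that closes the cycle, had 605 to 702 CPM in PiZ/Chop-/-, against 1067 CPM in PiZ library 1 and 384 to 651 CPM in the other PiZ libraries. Gls2, the periportal glutaminase that releases ammonia, had 135 to 155 CPM in PiZ/Chop-/- and 118 to 216 CPM in PiZ, where library 1 was again highest. Glud1, glutamate dehydrogenase, differed from these, with 599 to 836 CPM in PiZ/Chop-/- and 564 to 1144 CPM in PiZ, highest in PiZ library 4. None of these 4 passed, with adjusted p from 0.707 to 0.957. By the root mean square difference of centred log2 CPM over the 8 libraries, Cps1 was the most like Oat of 3479 genes (0.25), followed by Larp1, an RNA-binding regulator of translation (0.30), and Akr1d1, a reductase of bile acid synthesis (0.31). Oat and these genes were each highest in PiZ library 1. A single library far above the rest can in itself make patterns alike.

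**Figure D2:**
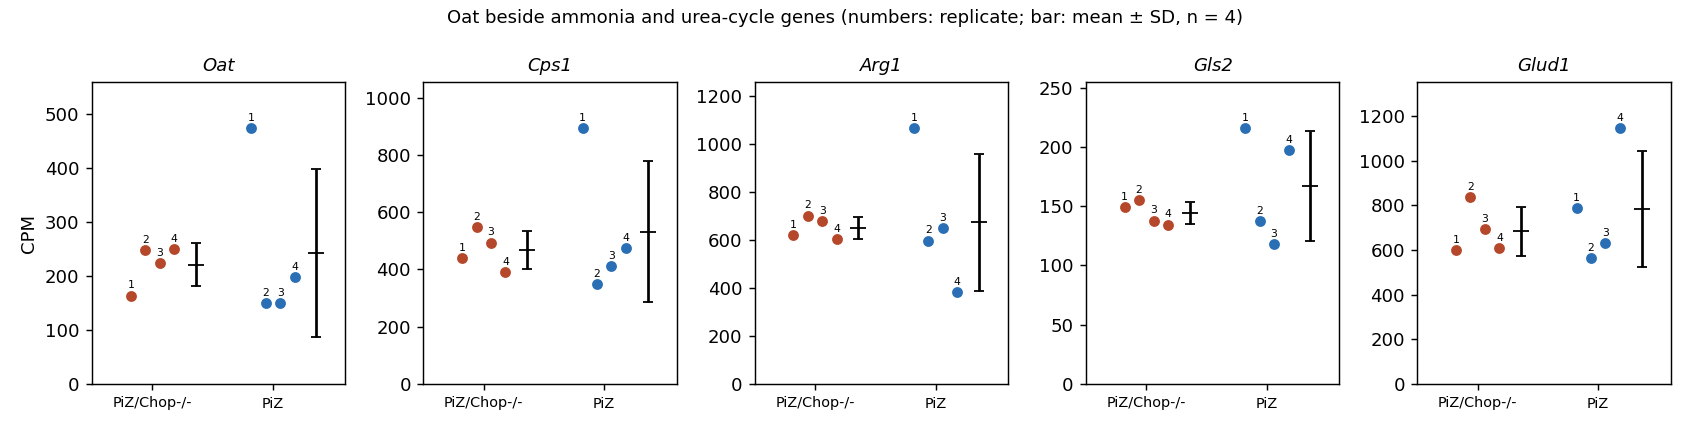
Level in CPM (vertical axes, each from 0) of Oat, Cps1, Arg1, Gls2 and Glud1 in the 4 PiZ/Chop-/- libraries (left, red) and the 4 PiZ libraries (right, blue), with replicate numbers and mean ± SD. PiZ library 1 is the highest PiZ point for Oat (473 CPM), Cps1 (893 CPM), Arg1 (1067 CPM) and Gls2 (216 CPM), and PiZ library 4 is the highest for Glud1 (1144 CPM).

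Lect2, a protein secreted by hepatocytes and a target of beta-catenin, was the most abundant of the genes and varied least. It had 438, 398, 384 and 467 CPM in PiZ/Chop-/- libraries 1 to 4 and 511, 490, 523 and 448 CPM in PiZ libraries 1 to 4. PiZ library 4 lay below PiZ/Chop-/- library 4, and the other 3 PiZ libraries lay above the whole PiZ/Chop-/- group. The mean was 422 ± 37.6 CPM in PiZ/Chop-/- and 493 ± 32.9 CPM in PiZ (SD, n = 4 each; log2 fold change -0.22, 95% interval -0.59 to 0.14, adjusted p = 0.610 by edgeR, p = 0.0571 by an exact two-sided permutation test). With library size as the only scaling the Lect2 groups did not overlap, at 378 to 479 CPM in PiZ/Chop-/- and 483 to 536 CPM in PiZ (exact two-sided permutation p = 0.0286). Under that scaling Lect2 still did not pass (log2 fold change -0.30, adjusted p = 0.458, edgeR). The median log2 fold change of all genes was then -0.077. In PiZ livers each Lect2 value lay above each Glul value, while in PiZ/Chop-/- livers the ranges of these neighbours in the order overlapped. In GENCODE M21 Lect2 lies on the minus strand of chromosome 13 at 56542464 to 56548502, with no other gene model over it. The RefSeq start used for its promoter window is a different one.

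Tbx3, a T-box transcription factor that beta-catenin induces in liver, stood lower in most PiZ/Chop-/- libraries without passing. It occupies 119670669 to 119684724 of chromosome 5, plus strand. It had 21.8, 13.2, 32.8 and 32.1 CPM in PiZ/Chop-/- libraries 1 to 4 and 49.8, 36.9, 47.9 and 22.8 CPM in PiZ libraries 1 to 4. All 4 PiZ/Chop-/- values lay below 3 of the PiZ values, and PiZ library 4 fell among them. The mean was 25.0 ± 9.31 CPM in PiZ/Chop-/- and 39.4 ± 12.4 CPM in PiZ (SD, n = 4 each; log2 fold change -0.65, 95% interval -1.29 to -0.0047, unadjusted p = 0.0486, adjusted p = 0.376 by edgeR, p = 0.114 by an exact two-sided permutation test). An unadjusted p below 0.05 was found in 13.1% of all genes tested. Tbx3os1, a transcript annotated across its start on the other strand, had 2.87 to 20.03 CPM in PiZ/Chop-/- and 3.89 to 8.61 CPM in PiZ. Whether counting used strand is not known here, and without strand the reads of this pair cannot be told apart where they overlap. The Tbx3 and Rhbg ranges overlapped in both groups, so their order is not fixed.

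**Figure D3:**
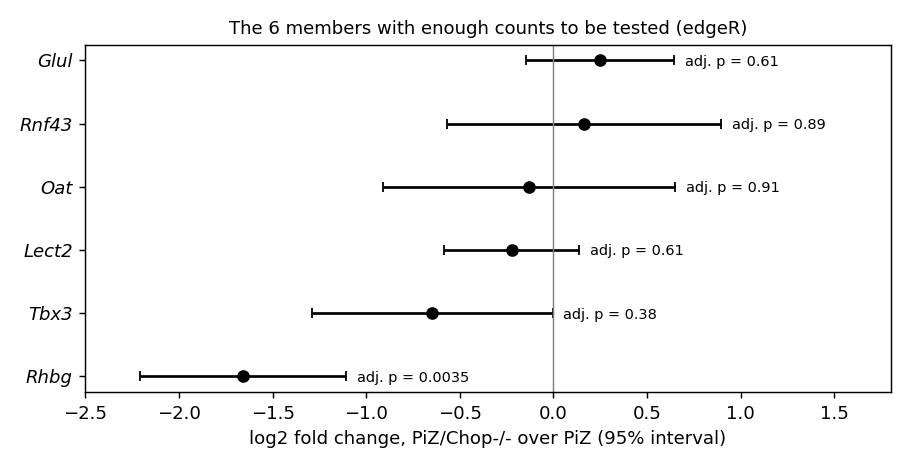
Log2 fold change of PiZ/Chop-/- over PiZ (horizontal axis) with its 95% interval for the 6 tested genes, from edgeR. The Rhbg interval (-2.21 to -1.11) lies clear of 0 and of the intervals of Glul, Oat, Lect2 and Rnf43, and its adjusted p is the only one under 0.05.

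The feedback inhibitors of Wnt signalling were scarce in these libraries. Rnf43, a membrane ubiquitin ligase that removes Frizzled receptors, was the 1 inhibitor with enough counts, 20, 11, 15 and 22 in PiZ/Chop-/- libraries 1 to 4 and 13, 10, 21 and 22 in PiZ libraries 1 to 4. It averaged 8.33 ± 1.77 CPM in PiZ/Chop-/- and 7.51 ± 2.34 CPM in PiZ (SD, n = 4 each; log2 fold change 0.16, 95% interval -0.57 to 0.89, adjusted p = 0.888, edgeR). The groups overlapped almost fully, and the interval still allows 0.673 to 1.86 times the PiZ level. GENCODE M21 places 1110028F11Rik over it on the same strand, with 53 counts over the 8 libraries against 134 for Rnf43. Znrf3, the related ligase with the same task, had 4, 9, 8 and 5 counts in PiZ/Chop-/- libraries 1 to 4 and 5, 3, 8 and 11 in PiZ libraries 1 to 4, again with no separation.

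Axin2, a scaffold of the complex that degrades beta-catenin and the usual readout of the pathway, had 3, 4, 4 and 6 counts in PiZ/Chop-/- libraries 1 to 4 and 2, 1, 3 and 3 in PiZ libraries 1 to 4. That is 2.12 ± 0.587 CPM in PiZ/Chop-/- and 1.03 ± 0.406 CPM in PiZ (SD, n = 4 each; exact two-sided permutation p = 0.0571). The lowest PiZ/Chop-/- value, 1.39 CPM, lay just under the highest PiZ value, 1.42 CPM. Nkd1, which binds Dishevelled and dampens the pathway, had 4, 5, 2 and 6 counts in PiZ/Chop-/- libraries 1 to 4 and 1, 2, 4 and 11 in PiZ libraries 1 to 4, with 1 PiZ library above all others.

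Lgr5, the receptor for Rspondins that marks central-vein hepatocytes, had 9, 10, 9 and 11 counts in PiZ/Chop-/- libraries 1 to 4 and 5, 3, 5 and 8 in PiZ libraries 1 to 4. It averaged 4.88 ± 0.700 CPM in PiZ/Chop-/- and 2.48 ± 1.14 CPM in PiZ (SD, n = 4 each). Each PiZ/Chop-/- library lay above each PiZ library (exact two-sided permutation p = 0.0286), but the gap was narrow, 4.18 against 3.80 CPM. With library size as the only scaling the groups overlapped and p was 0.0571. With the filter on low counts left out, edgeR gave a log2 fold change of 1.00 for Lgr5 (SE 0.59, adjusted p = 0.567) and 1.03 for Axin2 (SE 0.88, adjusted p = 0.637). The same fit gave 0.11 for Znrf3 (SE 0.61) and 0.074 for Nkd1 (SE 0.75). No difference was detected in these 4 genes by that fit. Lgr5 lies on chromosome 10 at 115450311 to 115587780 (mm10), 11.7 Mb from Ddit3, the deleted gene, on the same chromosome.

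The Wnt ligands and receptors did not pass either. Of 38 listed genes 10 had enough counts, 11 had none, and 0 of the 10 were called by edgeR, DESeq2 or limma-voom. With edgeR 6 lay above 0 and 4 below (median 0.082). An unadjusted p under 0.05 was found for 1, against 13.1% of all genes tested. That 1 was Wnt2, a ligand of liver endothelium, with 5.64 ± 0.879 CPM in PiZ/Chop-/- and 9.63 ± 2.13 CPM in PiZ (SD, n = 4 each; edgeR log2 fold change -0.77 ± 0.33 SE, adjusted p = 0.341). Its counts were 11, 12, 10 and 12 in PiZ/Chop-/- libraries 1 to 4 and 14, 18, 26 and 27 in PiZ libraries 1 to 4, so that the groups did not overlap in CPM either (at most 6.90 CPM in PiZ/Chop-/-, at least 8.36 CPM in PiZ). Wnt9b, the other central-vein ligand, had 0, 3, 1 and 0 counts in PiZ/Chop-/- and 1, 4, 6 and 3 in PiZ, too few to test. Rspo3, which raises the response to Wnt, stood at 8.52 ± 4.11 CPM in PiZ/Chop-/- and 8.54 ± 2.4998 CPM in PiZ (SD, n = 4 each; log2 fold change 0.010, adjusted p = 0.996, edgeR). That near-zero value turned negative in several alternatives. The 18 endothelial markers, Wnt2, Wnt9b and Rspo3 among them, were all detected and summed to 583 to 657 CPM in PiZ/Chop-/- and 459 to 540 CPM in PiZ. Their part in the Wnt2 values was not tested.

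The receptors gave mixed values, and none passed. Among the Frizzled receptors, Fzd8 had a log2 fold change of 0.77 (adjusted p = 0.557) and Fzd4 0.66 (0.496, edgeR). Lrp5 and Lrp6, the co-receptors, had log2 fold changes of -0.44 (adjusted p = 0.569) and 0.15 (0.834, edgeR). Lgr4, the Rspondin receptor of most hepatocytes, had 0.36 (adjusted p = 0.619) and Ryk, an atypical Wnt receptor, -0.0047 (adjusted p = 0.997). Lgr6 had 0 counts in every library.

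Among 35 genes of the machinery downstream of the receptor, 27 were tested and 0 were called by edgeR, DESeq2 or limma-voom. With edgeR 16 lay above 0 and 11 below (median 0.12). An unadjusted p under 0.05 was found for 2, against 13.1% of all genes tested. Ctnnb1, beta-catenin itself, stood at 141 ± 7.93 CPM in PiZ/Chop-/- and 156 ± 31.4 CPM in PiZ (SD, n = 4 each; log2 fold change -0.15, adjusted p = 0.777). Of the complex that degrades it, Axin1 had -0.56 (adjusted p = 0.492), Apc 0.21 (0.847), Gsk3b 0.23 (0.689) and Csnk1a1 -0.12 (0.867). Without PiZ libraries 1 and 4 the signs of Ctnnb1, Apc and Gsk3b turned. Cdh1, the cadherin that holds beta-catenin at the membrane, had 0.38 (adjusted p = 0.564). These are transcript levels and carry no information on the beta-catenin protein.

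Tcf7l2, the main TCF factor of hepatocytes, had the lowest p of that list. It had 51.1, 37.4, 59.6 and 36.8 CPM in PiZ/Chop-/- libraries 1 to 4 and 27.1, 20.9, 26.0 and 32.3 CPM in PiZ libraries 1 to 4. The groups did not overlap, with PiZ library 4 the closest to the PiZ/Chop-/- range. The mean was 46.2 ± 11.1 CPM in PiZ/Chop-/- and 26.6 ± 4.67 CPM in PiZ (SD, n = 4 each; edgeR log2 fold change 0.80 ± 0.23 SE, adjusted p = 0.135), which did not pass.

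Of 39 other listed pericentral hepatocyte genes 37 were tested. With edgeR 3 were called lower and none higher, against 0.692% lower and 0.335% higher over all genes. The list was chosen with earlier results of these data known, so these shares are a description. Fold changes were above 0 for 19 genes and below for 18 (median 0.0014). An unadjusted p under 0.05 (edgeR) was found for 11 of the 37, against 13.1% of all genes tested. Most of these 11 lay above 0, Cyp1a2 and Slc1a2 among them, and the 3 called genes were among those below. Cyp7a1, the rate-limiting enzyme of bile acid synthesis, had 87.9 ± 20.6 CPM in PiZ/Chop-/- and 304 ± 82.0 CPM in PiZ (SD, n = 4 each; edgeR log2 fold change -1.79 ± 0.23 SE, adjusted p = 0.000758). Slc22a3, an organic cation transporter, had 7.45 to 13.2 CPM in PiZ/Chop-/- and 25.3 to 78.7 CPM in PiZ (log2 fold change -2.53, SE 0.33, adjusted p = 0.000804, edgeR). Gstm3, a glutathione transferase of a family with near-identical members, fell by 2.00 on the log2 scale (SE 0.35, adjusted p = 0.0173, edgeR), but missed the threshold without PiZ library 2 or 4 (adjusted p = 0.0580 and 0.0644) or PiZ/Chop-/- library 3 (0.0831).

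Of the other pericentral genes named whatever their outcome, Cyp2e1, Cyp1a2, Slc1a2 and Gulo, none passed with all libraries and the filter on low counts. Cyp2e1, which oxidises ethanol, had 966 to 1551 CPM in PiZ/Chop-/- and 1022 to 1384 CPM in PiZ (log2 fold change 0.16, adjusted p = 0.793, edgeR). Cyp1a2, which oxidises caffeine, had 1033 to 1873 CPM in PiZ/Chop-/- and 637 to 1123 CPM in PiZ (0.67, adjusted p = 0.239), and passed once the filter was left out (0.68, adjusted p = 0.0480). Slc1a2, a glutamate transporter of the same cells as Glul, had 101 to 182 CPM in PiZ/Chop-/- and 85.0 to 121 CPM in PiZ (0.65, adjusted p = 0.192). For Cyp1a2 and Slc1a2 the groups overlapped through PiZ/Chop-/- library 2, and without it Slc1a2 passed (0.81, adjusted p = 0.0427). Gulo, the enzyme that ends vitamin C synthesis in mice, had 612 to 758 CPM in PiZ/Chop-/- and 724 to 1128 CPM in PiZ (-0.39, adjusted p = 0.408).

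Sp5, a transcription factor and direct Wnt target chosen here after its values were seen, was near the limit of detection. It had 1, 0, 0 and 1 counts in PiZ/Chop-/- libraries 1 to 4 and 5, 8, 4 and 3 in PiZ libraries 1 to 4. The groups did not overlap, but since the gene was chosen after its values were seen, this is a description and not a test. With the filter on low counts left out its adjusted p was 0.191 (edgeR).

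Among other common Wnt targets, 4 of 19 listed genes had enough counts and Vegfa, a growth factor for endothelium that many pathways induce, rose. It had 27.4, 51.7, 64.0 and 45.7 CPM in PiZ/Chop-/- libraries 1 to 4 and 17.8, 18.5, 20.3 and 15.7 CPM in PiZ libraries 1 to 4. Every PiZ/Chop-/- library lay above the tight PiZ group (log2 fold change 1.38, SE 0.26, adjusted p = 0.0149, edgeR). Limma-voom missed the threshold (adjusted p = 0.0529), and so did edgeR with PiZ/Chop-/- library 3 left out (0.0759) or PiZ libraries 1 and 4 both left out (0.0586). The other 3 tested, Cd44, Ccnd1 and Sox4, were below 0 and did not pass, and the median of the 4 was -0.63. That is 1 call among 4 genes, against 1.03% of all genes in either direction and 0.335% higher. An unadjusted p under 0.05 (edgeR) was found for 3 of the 4, against 13.1% of all genes tested. Of these, Vegfa lay above 0 and Cd44 and Ccnd1 below.

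Periportal genes, which Wnt signalling holds down around the central vein, showed 1 call among 40 tested genes (24 above 0, 16 below, median 0.064). An unadjusted p under 0.05 was found for 10 of them. Over all genes tested, 1.03% were called and 13.1% had an unadjusted p under 0.05. Pigr, the receptor that carries IgA into bile, had 235 to 430 CPM in PiZ/Chop-/- and 91.6 to 164 CPM in PiZ (log2 fold change 1.24, SE 0.23, adjusted p = 0.0139, edgeR). Its adjusted p was 0.0634 when either PiZ/Chop-/- library 1 or PiZ library 3 was left out. Cyp2f2, a cytochrome P450 of portal hepatocytes, had 0.38 (adjusted p = 0.533), and DESeq2 called Uroc1 and Igfals besides Pigr. Of 22 genes of ammonia and glutamine handling 15 were tested and 0 were called by edgeR, DESeq2 or limma-voom (edgeR: 4 above 0, 11 below, median -0.11, 3 with an unadjusted p under 0.05). The most abundant, the amino acid transporter Slc38a4, had -0.11 (adjusted p = 0.876).

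**Figure D4:**
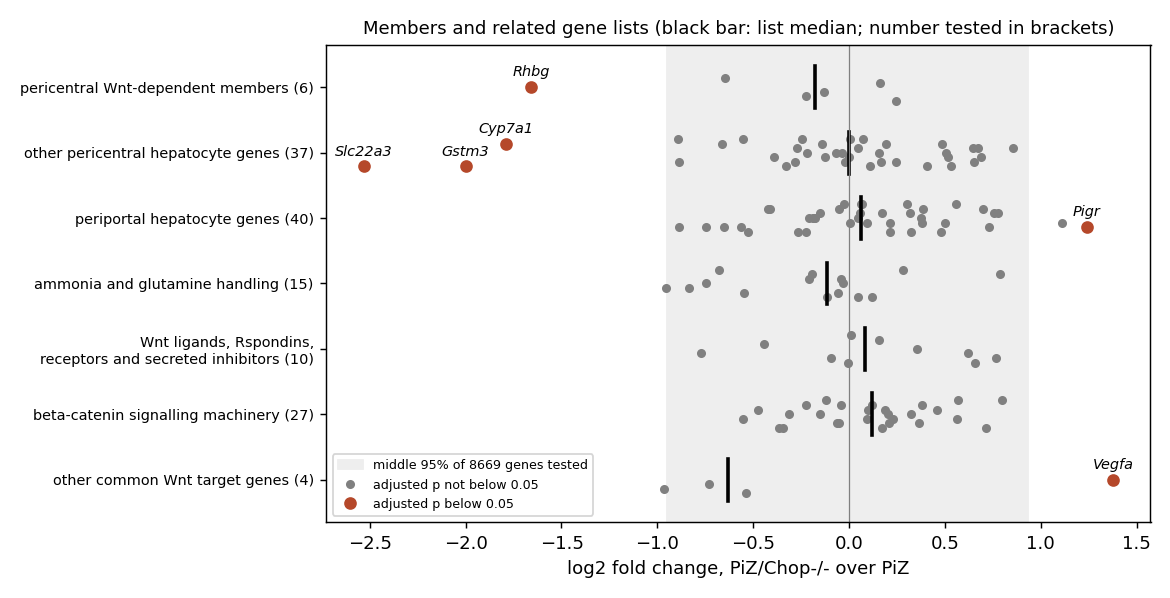
Log2 fold change of PiZ/Chop-/- over PiZ (horizontal axis) for each tested gene of the 10 described here and of 6 related lists, with called genes in red and the list median as a black bar. The grey band holds the middle 95% of the 8669 genes tested (-0.95 to 0.94), and below it lie the called genes Rhbg (-1.66), Gstm3, Cyp7a1 and Slc22a3 and, just outside, Cd44 and Gfpt1, which did not pass.

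The genes whose pattern over the 8 libraries was most like that of Rhbg, among 3480 compared, were Cyb5r1, a cytochrome b5 reductase, Spink1, a secreted trypsin inhibitor, and Adora1, an adenosine receptor (root mean square difference of centred log2 CPM 0.26, 0.28 and 0.42). Spink1 had 28.8, 15.5, 20.9 and 21.4 CPM in PiZ/Chop-/- libraries 1 to 4 and 81.8, 64.6, 79.7 and 100.1 CPM in PiZ libraries 1 to 4 (log2 fold change -1.90, SE 0.23, adjusted p = 0.000354, edgeR). Like Rhbg, it was lowest in PiZ/Chop-/- library 2. Cyb5r1 had 67.8, 24.1, 48.7 and 41.5 CPM in PiZ/Chop-/- libraries 1 to 4 and 78.1, 142, 143 and 171 CPM in PiZ libraries 1 to 4 (-1.55, SE 0.30, adjusted p = 0.0205, edgeR). Leaving out PiZ library 2, 3 or 4 ended that call (adjusted p = 0.0642, 0.0634 and 0.0622), as did leaving out PiZ/Chop-/- library 3 or 4 (0.0831 and 0.101). Adora1 did not pass (-1.002, adjusted p = 0.0956), but did with DESeq2 (adjusted p = 0.0419) and with no filter on low counts in edgeR (0.00244). Neither Spink1, Cyb5r1 nor Adora1 is on a list of pericentral genes used here, and a large difference between the groups is in itself enough to make patterns alike. For Glul, whose libraries differed little, the closest were Pbld2, Ndufa7, a subunit of respiratory complex I, and Vrk3 (0.072, 0.11 and 0.12).

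Of the other cell types given here, only the summed Kupffer cell and macrophage markers did not overlap between the groups. With edgeR no single marker of these lists was called, and DESeq2 called 1, of stellate cells. The 13 Kupffer cell and macrophage markers, all detected, summed to 856 to 1006 CPM in PiZ/Chop-/- and 1099 to 1575 CPM in PiZ. The 14 stellate cell markers, all detected, summed to 359 to 510 CPM in PiZ/Chop-/- and 467 to 598 CPM in PiZ. The 15 markers of lymphocytes and neutrophils, all detected, summed to 10.7 to 95.4 CPM in PiZ/Chop-/- and 20.9 to 46.2 CPM in PiZ, and the 6 red cell markers to 341 to 1456 CPM and 351 to 832 CPM in the same order of groups. The part of other cell types in the Rhbg values was not tested.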

How the data were processed

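Liver RNA of 4 PiZ/Chop-/- and 4 PiZ libraries was read with the QuantSeq 3′ mRNA kit in single reads of 75 bases, per the labels' protocols. Per the file headers, each deposited column holds raw counts. The submitters' processing notes list STAR and HTSeq without versions, and the build mm10. Annotation release, strand setting and treatment of multiply matched or duplicate reads: not given in the sources used here. Intervals cover the spread between libraries, and low counts carry counting error on top of unknown PCR copies. Of 52550 mouse IDs 52403 were found in GENCODE M21, which gave symbols and positions.

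The counts went through edgeR 4.0.16 (R 4.3.3), with filterByExpr at a minimum count of 10, TMM scaling, robust glmQLFit and glmQLFTest, no covariate, Benjamini-Hochberg adjustment. SE is the size of the log2 fold change divided by the root of F, and 95% intervals use the fit's degrees of freedom. Log2 CPM used a prior count of 2, and exact tests ran over the 70 assignments of 4 of 8 libraries. The fit was also run on counts simulated from means and dispersions estimated from these libraries. That checks the code only, and its outcome is not reported here. Alternatives were other scalings, DESeq2 1.42.0, limma-voom (limma 3.58.1), other filters, a fit that was not robust, a replicate block and each library left out; the omission of PiZ libraries 1 and 4 together, those with the lowest mean correlations with their group (0.931 and 0.914), was chosen after seeing the data.

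The genes and lists were chosen with earlier results of these data known. The text names all 10 genes; 20 genes of the pathway and of zonation whatever their outcome; in each other list up to 4 called genes by lowest p or, with none, the 2 of highest CPM; and the 3 genes closest in pattern to Glul, Oat and any called gene of the 10, among genes of mean log2 CPM 5 or more. Sp5, Tbx3os1, Fzd4, Fzd8, Wnt targets and Rh channels named beside them were chosen after their values were seen. One listed hepatocyte marker symbol, Tf, had no row. The bile duct cell marker list is not reported here.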

Additional observations from a re-analysis of the deposited data

Results flagged for a closer look

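Among the 10 genes, 3 of 20 groups of 4 libraries held 1 library far from the other 3. Rhbg in PiZ/Chop-/- library 2 (8.62 CPM) lay below 3 libraries of 19.86 to 20.03 CPM. Oat in PiZ library 1 (473 CPM) lay above the other PiZ libraries, and so did Nkd1 in PiZ library 4 (5.22 CPM), which rests on 11 counts. Among the other genes named, single libraries stood apart for Wnt2 in PiZ library 4 (12.8 CPM), Vrk3 in PiZ library 2 (25.3 CPM) and Larp1 in PiZ library 1 (168 CPM). In all, 6 of 90 groups were marked, and chance marks about 1 in 20.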

How the results depend on the processing

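The number called among the 10 genes was 1 in all 18 alternatives, and it was Rhbg each time with edgeR, DESeq2 and limma-voom. Over all genes 89 were called, against 209 with DESeq2, 357 with no filter on low counts and 46 to 169 with 1 library left out. On the 6 other lists 5 genes were called, against 15 with no filter and 3 to 10 with 1 library left out. With library size as the only scaling 76.8% of calls were lower, against 67.4%, and 54.5% with DESeq2 and 51% with no filter. No pairing of the libraries by replicate number was seen. Correlations of deviations were -0.051 to 0.049, and 2 of 8 libraries correlated best with their own number. With 4 libraries per group this check cannot show that the libraries are unpaired. With the replicate block 76 genes, 1 of the 10 and 5 list genes were called. Values that changed sign, in log2 fold change, were all of genes that did not pass. Oat gave 0.030 with limma-voom, 0.054 with the replicate block and 0.56 without PiZ libraries 1 and 4, and -0.31 to 0.42 with 1 library left out. Rspo3 gave -0.064 with library size only, -0.049 with limma-voom, -0.052 with the block, 0.40 without PiZ libraries 1 and 4, and -0.28 to 0.22 with 1 left out. Arg1 gave 0.040 with limma-voom, 0.043 with the block, 0.063 without PiZ libraries 1 and 4, and -0.23 to 0.26 with 1 left out. Ryk gave 0.0038 with RLE, 0.0080 with DESeq2, 0.012 with limma-voom, 0.0093 with no filter, 0.0031 with the block, 0.19 without PiZ libraries 1 and 4, and -0.14 to 0.11 with 1 left out. Without PiZ libraries 1 and 4 Ctnnb1 gave 0.12, Apc -0.048, Gsk3b -0.024, Lrp6 -0.052, Gls2 0.18, Cps1 0.30, Glud1 0.20 and Larp1 0.18. With 1 library left out Apc ran from -0.22 to 0.38, Cps1 from -0.34 to 0.19, Glud1 from -0.32 to 0.068, Csnk1a1 from -0.28 to 0.0078, Gsk3b up to 0.37, Lrp6 up to 0.41, Gls2 down to -0.35 and Larp1 from -0.34 to 0.18. The cause of these changes was not tested. Axin2, Znrf3, Lgr5 and Nkd1 had 1 to 11 counts per library, and the part of depth in their values was not tested.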
